A study of Mus musculus with 35 samples.

Results

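Liver that carries no visible tumor was compared with liver of untreated mice 9 months after birth, in animals that had received the carcinogen diethylnitrosamine (DEN) as pups. The comparison holds 10 of the 35 arrays of the series, 5 of DEN non-tumorous liver (NTL) and 5 of DEN control liver, chosen by their titles. The DEN mice were injected with 10 mg per kg of body weight on day 15 of life. The control livers came from untreated mice described in the labels as matched for sex and age. The other groups, used here only for comparison, are 5 DEN tumors, and the 4 transgene-negative controls, NTL and tumors of a lymphotoxin (LT) and a MYC experiment. In the LT model, tg1223 mice carry lymphotoxin alpha and beta transgenes active in liver and were sampled at 12 months (5 NTL and 3 tumor arrays). In the MYC model, a liver-specific promoter (LAP-tTA) drives TRE-MYC after doxycycline chow at 200 mg per kg is withdrawn at 8 weeks of age (3 NTL and 5 tumor arrays). The identifiers of the MYC NTL mice start with the letters WT, and that group is used as labelled. Each DEN NTL and control array carries its own mouse identifier, none of which recurs among the DEN tumors, and no strain is named in the labels. NTL was separated from tumor by eye, and the labels report histology for the tumor tissue only.

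DEN is turned into a DNA-alkylating agent by cytochrome P450 enzymes in hepatocytes, and pups are treated because their hepatocytes still divide. The liver around the tumors that appear months later went through the same exposure, and lasting changes in such tissue are called field effects. Genes that serve as markers here include fetal liver genes that are shut off after birth and return in many liver tumors, and targets of p53, the transcription factor that answers DNA damage.

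RNA was hybridised to Affymetrix Mouse Gene 1.1 ST arrays, and all values are log2 expression values after RMA normalization. A change of 1 on this scale is a 2-fold change. One feature of the controls bears on all that follows. The transcript Xist, made from the inactive X chromosome of females, stood at 12.02 in control replicate 3 and between 3.98 and 6.24 in the other 4 controls, against 3.54 to 3.88 in the 5 NTL arrays. The level in control replicate 3 is at odds with the match for sex described in the labels. Results are therefore also given without that array where its removal matters. The 12 measured hepatocyte markers averaged 13.1 to 13.17 in the controls and 13.06 to 13.16 in NTL. They averaged 13.05 to 13.24 in the DEN tumors, so these markers do not tell tumor from non-tumorous liver. The part of tumor cells or small tumors within NTL in the changes below was not tested. Albumin (Alb) averaged 13.67 ± 0.04 (SD, n = 5) in controls and 13.67 ± 0.06 (SD, n = 5) in NTL.

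Few genes differed. With the spread estimated over all 35 arrays (limma, Benjamini-Hochberg adjusted p under 0.05 over 18820 genes), 37 genes were called, 0.197% of those tested. Of these, 13 were higher in NTL (0.0691%) and 24 were lower (0.128%), and 17 of the 37 changed at least 2-fold. When the 10 arrays of the 2 groups entered the fit alone, 183 genes were called (0.972%), 110 higher (0.584%) and 73 lower (0.388%), and 32 genes were called in both fits. An unadjusted p under 0.05 (limma) was found for 1798 genes over all arrays and for 3075 over the 2 groups. The fits share their arrays and differ in the spread they use. For Gpc3, whose level ranged from 6.35 to 12.19 among the DEN tumors, the standard error of the same change was 0.75 over all arrays and 0.10 over the 2 groups. The fit is named with each value below, and "called" without a fit means all arrays. In all, 880 genes had groups that did not overlap (4.68%), 416 with all NTL values above all control values (2.21%) and 464 with all below (2.47%).

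The steepest rise was that of Akr1c18 (Entrez 105349), the 20-alpha-hydroxysteroid dehydrogenase that inactivates progesterone. Its values were 4.36, 4.01, 4.44, 4.23 and 4.22 in the 5 controls and 9.53, 9.77, 9.21, 9.92 and 9.41 in the 5 NTL arrays. The groups lay far apart, with the controls near the dim end of the arrays and every NTL array bright. The change was 5.32 ± 0.33 (SE; adjusted p = 3.98e-12, limma over all arrays). The control mean of 4.25 lay at the edge of the first quartile of the arrays (4.13 to 4.24), so the direction is better known than the size. The 5 DEN tumors were higher still at 12.45 ± 0.36 (SD, n = 5), 2.88 ± 0.33 (SE) above NTL. No array outside the DEN NTL and DEN tumor groups exceeded 6.10, a separation of these 10 arrays from the other 25 that held for 9 of 18820 genes (0.0478%), among them Klrb1b, Gldn, Csn3, Afp and Tmem54. The other members of the Akr1c family on the array, enzymes that reduce steroids and related carbonyls, were not called in either fit. Akr1c6, abundant in liver, changed by 0.09 ± 0.19 (SE, all arrays), Akr1c14 by 0.00 ± 0.19, Akr1c12 by -0.06 ± 0.11, Akr1c13 by -0.10 ± 0.14, Akr1c19 by -0.14 ± 0.22, Akr1c20 by 0.23 ± 0.19 and Akr1c21 by -0.06 ± 0.08. These genes have close paralogs, and probe sets may share signal among them.

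Klrb1b (Entrez 80782), which encodes an inhibitory C-type lectin receptor known from natural killer cells, was the second steepest riser. Control values were 3.95, 3.83, 4.13, 4.01 and 4.36, and NTL values were 7.02, 7.37, 6.27, 7.16 and 6.36. All NTL arrays were above all controls, and the DEN tumors ranged from 8.84 to 11.7. The change was 2.78 ± 0.36 (SE; adjusted p = 3.52e-05, limma over all arrays), and the control mean of 4.06 lay below the first quartile of the arrays. Of the 25 measured markers of T and NK cells, Klrb1b was the only one called in either fit, and the median change of the list was 0.03. Ncr1, an activating receptor of NK cells, stood at 3.82 ± 0.22 (SD, n = 5) in controls and 3.92 ± 0.21 (SD, n = 5) in NTL. Klrb1c, the NK1.1 antigen encoded in the same gene cluster as Klrb1b, stood at 3.81 ± 0.18 and 3.63 ± 0.15 (SD, n = 5 each). In bulk tissue, more cells of a type and more RNA per cell cannot be told apart.

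Gldn (Entrez 235379) encodes gliomedin, an adhesion protein of Schwann cells at nodes of Ranvier. Control values were 4.10, 3.99, 4.23, 4.11 and 4.07, NTL values were 5.96, 6.08, 5.46, 5.90 and 5.74, and the tumors averaged 10.31 ± 0.34 (SD, n = 5). The 3 DEN groups formed separate steps, and no array outside DEN NTL and DEN tumor exceeded 4.91. The change in NTL was 1.73 ± 0.13 (SE; adjusted p = 2.48e-10, limma over all arrays).

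Scd2 (Entrez 20250), a stearoyl-CoA desaturase that makes monounsaturated fatty acids in fetal liver and brain, stood at 7.70, 7.40, 7.34, 7.14 and 7.32 in controls and at 9.54, 9.09, 9.70, 9.04 and 8.94 in NTL. Here too every NTL array was above every control, and the tumors were above both at 12.24 ± 0.22 (SD, n = 5). The rise in NTL was 1.88 ± 0.35 (SE; adjusted p = 0.00826, limma over all arrays). Scd1, the main desaturase of adult liver, stood at 13.33 ± 0.23 (SD, n = 5) in controls and 13.49 ± 0.09 (SD, n = 5) in NTL, with a change of 0.15 ± 0.10 (SE) that was not called.

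**Figure D1:**
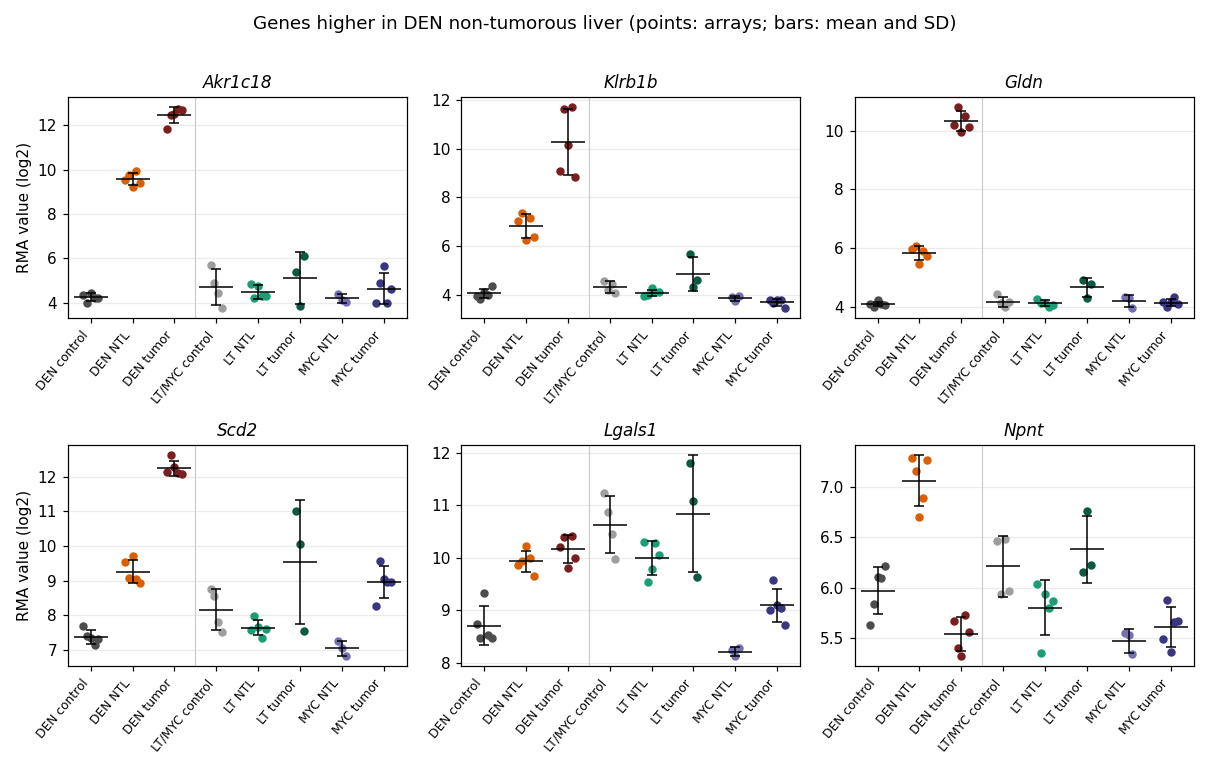
RMA values (log2, vertical axis) of 6 genes called higher in DEN NTL, by group (horizontal axis). Points are arrays, and bars are the group mean and SD. Akr1c18, Klrb1b, Gldn and Scd2 step up from control to NTL to tumor in the DEN groups, the LT and MYC control group has a higher mean of Lgals1 than DEN NTL, and Npnt has its highest mean in DEN NTL.

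Of the remaining called risers, 2 changed at least 2-fold. Lgals1 (Entrez 16852), the secreted lectin galectin-1, stood at 8.73, 8.46, 9.33, 8.53 and 8.47 in controls and at 9.86, 9.93, 10.22, 9.99 and 9.65 in NTL. The groups did not overlap, but the 4 controls of the LT and MYC experiments were at 10.63 ± 0.54 (SD, n = 4), above the DEN NTL mean of 9.93. Its change of 1.23 ± 0.26 (SE; adjusted p = 0.0347, limma over all arrays) lost its call in 8 of the 10 fits that left out an array, with the highest adjusted p of 0.122 without control replicate 2. Npnt (Entrez 114249), the matrix protein nephronectin, stood at 5.63, 5.84, 6.10, 6.09 and 6.21 in controls and at 7.28, 7.15, 6.70, 6.89 and 7.26 in NTL. Unlike the genes above, it was lower in the tumors, at 5.54 ± 0.17 (SD, n = 5), than in either liver group. Its change in NTL was 1.08 ± 0.15 (SE; adjusted p = 5.95e-05, limma over all arrays), and tumor minus NTL was -1.52 ± 0.15 (adjusted p = 3.2e-09), in a comparison that called 32.2% of genes.

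The other risers changed by less than 1. Terf2ip, the shelterin protein RAP1 at telomeres, rose by 0.63 ± 0.11 (SE) from 7.68 to 8.30 and was at 7.78 in tumors. Cd276, the immune checkpoint ligand B7-H3, rose by 0.61 ± 0.11 from 7.18 to 7.79 and was at 8.42 in tumors. Fbxo6, an F-box protein that recognises glycosylated proteins, rose by 0.56 ± 0.12, and Trp53inp1, a p53-induced stress protein, by 0.55 ± 0.12. Ifi27, an interferon-induced mitochondrial protein, rose by 0.92 ± 0.20, Mgat5b, a glycosyltransferase, by 0.36 ± 0.07, and the clone-named gene 1700020L24Rik by 0.31 ± 0.07. Of the 13 risers, 7 kept their call in every fit that left out an array: Akr1c18, Klrb1b, Gldn, Scd2, Npnt, Cd276 and Terf2ip. Over the 2 groups alone Terf2ip was not called (adjusted p = 0.0547), and the call of Cd276 (adjusted p = 0.0349) was lost in 8 of the 10 fits that left out an array. A second probe set of Cd276 changed by 0.07. The calls of Fbxo6, Mgat5b and 1700020L24Rik over all arrays were lost in 6, 4 and 7 of the 10 fits.

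Of the genes that mark fetal liver and liver tumors, 15 rose in NTL when the 2 groups were fitted alone and none fell, where 0.584% of all genes rose. The list holds 27 genes and 25 were measured, of which 23 had a change above 0. The list was written with earlier results of these data known, tumor results among them, and it holds leading risers such as Akr1c18 and Gldn. Its direction and its counts are therefore not independent evidence. Its median change was 0.76, against 0.011 over all genes tested. Over all arrays 4 members were called higher (Akr1c18, Scd2, Gldn and Lgals1) and none lower, where 0.0691% of all genes were called higher. All 5 NTL arrays exceeded all 5 controls for 16 members, as for 2.21% of all genes. The mean level of the 25 genes was 5.46, 5.35, 5.48, 5.30 and 5.38 in the controls, 6.44, 6.56, 6.53, 6.55 and 6.33 in NTL and 7.51 to 9.07 in the DEN tumors. The 3 ranges did not overlap. Without control replicate 3 the median was 0.86, and 16 members were called higher over the 2 groups.

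Gpc3 (Entrez 14734), the cell-surface proteoglycan glypican-3, stood at 4.78, 5.10, 4.80, 5.01 and 5.01 in controls and at 7.20, 7.26, 6.96, 7.54 and 7.31 in NTL. The NTL arrays were tightly grouped, while the tumors spread from 6.35 to 12.19, so 1 tumor was below every NTL array. The change was 2.31 ± 0.10 (SE; adjusted p = 7.98e-07, limma over the 2 groups), and it was not called over all arrays (SE 0.75; adjusted p = 0.261). Afp (Entrez 11576), alpha-fetoprotein, the main plasma protein of fetal liver, stood at 4.90, 4.73, 4.92, 4.82 and 5.01 in controls and at 6.53, 7.18, 6.76, 6.82 and 6.64 in NTL. No control overlapped NTL, and the same tumor that was low in Gpc3, tumor replicate 1, had 6.44 against 9.96 to 11.96 in the other 4. The change of Afp was 1.91 ± 0.11 (SE; adjusted p = 5.84e-06, limma over the 2 groups; adjusted p = 0.189 over all arrays).

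Other members followed with the same 2-group test. Csn3, a milk casein, rose by 2.05 ± 0.25 (SE; adjusted p = 0.00248) from a dim control mean of 3.01. Ly6d, a small surface protein of the Ly6 family, rose by 1.98 ± 0.34 (adjusted p = 0.0212), and Tff3, a secreted trefoil peptide, by 1.30 ± 0.22 (adjusted p = 0.0203), both calls lost in 4 of the 10 fits that left out an array. Tspan8, a tetraspanin of epithelial cells, rose by 1.29 ± 0.10 (adjusted p = 0.000107). Smaller rises were those of Tmem54 (0.88 ± 0.09), the cadherin Cdh17 (0.87 ± 0.09), the Golgi protein Golm1 (0.76 ± 0.12), the annexin Anxa5 (0.56 ± 0.09) and the trypsin inhibitor Spink1 (0.55 ± 0.08). Cdh17 and Spink1 had control means below the first quartile of the arrays. Igf2, the fetal growth factor, changed by 0.46 ± 0.16 (adjusted p = 0.183, limma over the 2 groups) and was not called.

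Transcripts of 2 imprinted regions were looked at after their values were seen. The long non-coding RNA Meg3 stood at 5.60, 6.13, 5.61, 6.03 and 6.07 in controls and at 6.96, 7.07, 7.46, 7.33 and 6.77 in NTL, a rise of 1.23 ± 0.15 (SE; adjusted p = 0.00222, limma over the 2 groups). The probe set for Mir675, the miRNA inside the first exon of H19, stood at 5.12 ± 0.14 (SD, n = 5) in controls and 5.62 ± 0.09 (SD, n = 5) in NTL, a rise of 0.49 ± 0.08 (SE; adjusted p = 0.0115, limma over the 2 groups). Neither was called over all arrays. The probe set does not tell the mature forms apart. Their sequences are given because they are the part of this locus that can act on target messages, with the seed (bases 2 to 8) in capitals, from RefSeq (GRCm38.p6, minus strand, chr7:142577078-142577099 and chr7:142577112-142577133).
mmu-miR-675-3p: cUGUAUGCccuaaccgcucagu
mmu-miR-675-5p: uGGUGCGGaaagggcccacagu

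**Figure D2:**
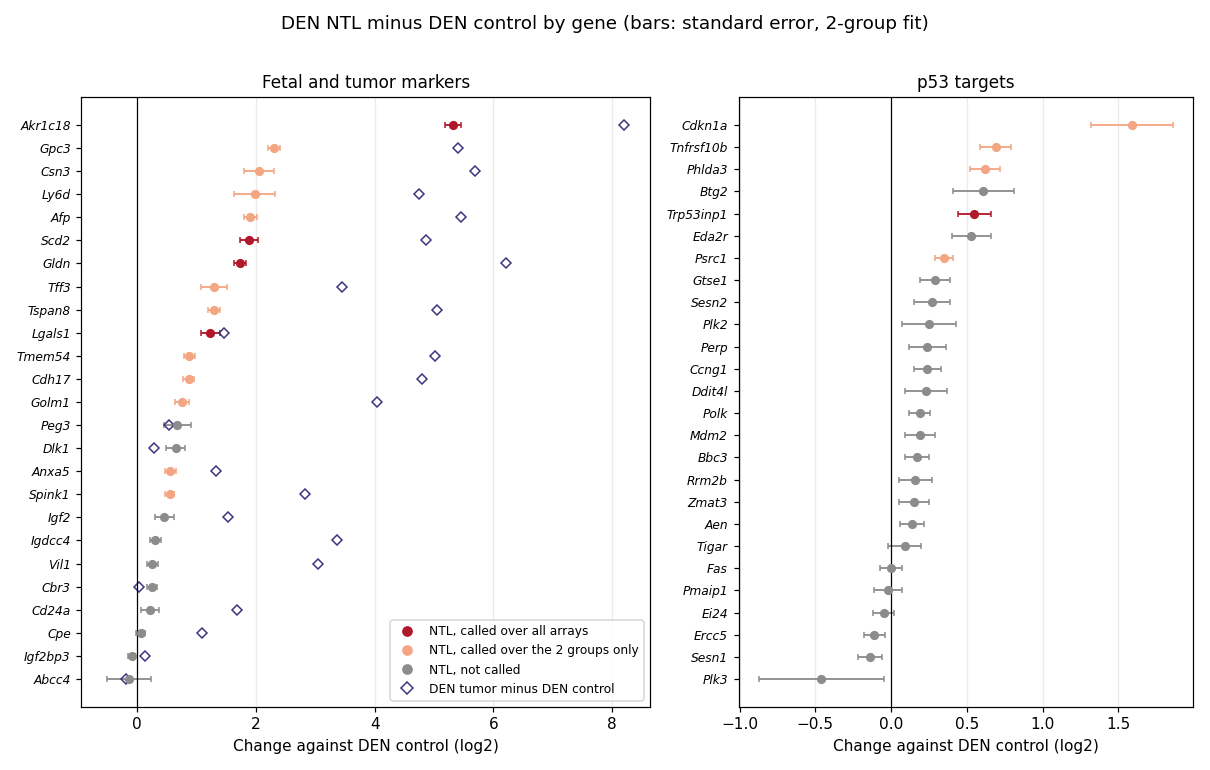
Change of each gene of the fetal and tumor marker list (left) and of the p53 target list (right) in DEN NTL against DEN control (log2, horizontal axis), with the standard error of the 2-group fit. Colour gives the call, and open diamonds on the left give DEN tumor minus DEN control. In the left panel 23 of 25 genes lie above 0, and most tumor changes lie further out.

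Of the p53 targets, 1 rose over all arrays (0.0691% of all genes did) and 5 over the 2 groups (0.584% of all genes did), and none fell. Of the 26 measured targets 21 had a change above 0, and the median was 0.21 against 0.011 over all genes. Without control replicate 3 the counts were 0 and 4. This list too was chosen with earlier results of these data known, so its counts are not independent evidence. Trp53inp1 was the member called over all arrays, and over the 2 groups Cdkn1a, Tnfrsf10b, Phlda3 and Psrc1 were called higher with it. The call of Trp53inp1 (adjusted p = 0.0322, limma over all arrays) was lost in 7 of the 10 fits that left out an array (adjusted p = 0.152 without control replicate 3), and over the 2 groups in 9 of 10. Cdkn1a (Entrez 12575) encodes p21, the inhibitor of cyclin-dependent kinases through which p53 halts the cell cycle. It stood at 9.91, 9.31, 8.70, 8.60 and 8.48 in controls and at 10.87, 11.07, 10.08, 10.54 and 10.38 in NTL, and the lowest NTL array was just above the highest control. The change was 1.59 ± 0.27 (SE; adjusted p = 0.0206, limma over the 2 groups; SE 0.41 and adjusted p = 0.116 over all arrays), and the 2-group call was lost in 4 of the 10 fits that left out an array. DEN tumors were at 10.82 ± 0.43 (SD, n = 5), a difference from NTL of 0.24 that was not called. Cdkn1a can also be induced without p53.

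Tnfrsf10b, a death receptor for TRAIL, rose by 0.69 ± 0.10 (SE; adjusted p = 0.00588), Phlda3, an inhibitor of AKT, by 0.62 ± 0.10 (adjusted p = 0.0139) and Psrc1, a spindle protein, by 0.35 ± 0.06 (adjusted p = 0.0182), all by limma over the 2 groups. Mdm2 and Ccng1, classical targets that feed back on p53, changed by 0.19 ± 0.10 and 0.24 ± 0.09 (SE, 2-group fit) and were not called. Eda2r changed by 0.53 ± 0.13 and was not called (adjusted p = 0.0817). The stretch upstream of the start of Cdkn1a is printed because it holds the one match among the 28 promoters of this list to the p53 motif of CATG, any 6 bases and CATG, searched on both strands (in capitals). It is from RefSeq, GRCm38.p6, chr17:29090856-29090969, plus strand. Of 32851 RefSeq promoters (250 bases before to 50 after a start), 0.712% hold these letters.
Cdkn1a promoter: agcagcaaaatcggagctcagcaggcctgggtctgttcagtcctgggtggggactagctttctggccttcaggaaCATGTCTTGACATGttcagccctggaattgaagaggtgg

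Cell division genes were not called over all arrays. Of 26 measured mitosis genes 25 had a change above 0, with a median of 0.21, and Bub1, the spindle checkpoint kinase, was called over the 2 groups. NTL replicate 2 was the highest, with a list median of 0.47 against the control mean and 0.08 to 0.26 in the other 4 NTL arrays. Bub1 rose by 0.65 ± 0.11 (SE; adjusted p = 0.0223, limma over the 2 groups) from a dim 3.55 to 4.20, a call lost in 4 of the 10 fits that left out an array. Mki67 stood at 5.58, 5.52, 5.45, 5.36 and 5.48 in controls and at 5.63, 6.56, 5.87, 5.67 and 5.41 in NTL, with replicate 2 the highest and the groups overlapping. Top2a, Cdk1 and Aurkb changed by 0.25 ± 0.11, 0.39 ± 0.12 and 0.50 ± 0.12 (SE, 2-group fit), none called. In the DEN tumors the list had a median of 1.24 above NTL. Of 25 DNA repair genes none was called in either fit (median 0.04), and the same held for 23 DNA replication genes (median -0.02).

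Among the 24 genes that fell, Cish (Entrez 12700) is the one with the clearest place in liver physiology. It encodes a SOCS-family inhibitor that growth hormone induces through STAT5. Control values were 7.77, 8.80, 8.34, 8.04 and 8.31, and NTL values were 6.70, 6.55, 6.02, 5.69 and 6.77. All NTL arrays were below all controls, and the 4 controls of the other experiments averaged 8.03 ± 1.05 (SD, n = 4). The fall was -1.90 ± 0.41 (SE; adjusted p = 0.0322, limma over all arrays; SE 0.23 and adjusted p = 0.00222 over the 2 groups). Over all arrays the call was lost in 7 of the 10 fits that left out an array (adjusted p = 0.147 without NTL replicate 4), and over the 2 groups in none. Without control replicate 3 the adjusted p over all arrays was 0.0799. The stretch around the start of Cish is printed for its pair of STAT5 motifs TTCNNNGAA (searched on both strands), in capitals. They lie in the first 20 bases from the start. The stretch is from RefSeq, GRCm38.p6, chr9:107296584-107296688, plus strand. Of the 32851 RefSeq promoters 8.3% hold at least 1 such motif. Of the 27 promoters of the growth hormone and STAT5 list 6 do, those of Cish, Socs3, Bcl6 and Igfals, and of these genes only Cish was called.
Cish promoter: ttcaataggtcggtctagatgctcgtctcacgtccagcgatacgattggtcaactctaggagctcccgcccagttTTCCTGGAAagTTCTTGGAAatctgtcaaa

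Of 18 measured growth hormone and STAT5 genes, Cish was the only one called in either fit, and the median was -0.06. Socs2, which also restrains growth hormone signalling, stood at 10.41, 10.50, 11.15, 8.08 and 9.16 in controls and at 8.09, 7.80, 9.23, 7.97 and 7.68 in NTL. The groups overlapped, and the change of -1.71 ± 0.56 (SE) was not called (adjusted p = 0.287, limma over all arrays). Onecut1, a hepatocyte transcription factor that growth hormone raises, changed by -1.49 ± 0.59 and was not called (adjusted p = 0.405). Igf1, the main endocrine product of the pathway, stood at 11.84 ± 0.11 (SD, n = 5) in controls and 11.74 ± 0.07 in NTL, and the repressor Bcl6 changed by 0.31 ± 0.59 (SE). Male-biased liver genes had a median of 0.26 and female-biased genes of -0.48, with none called over all arrays. Without control replicate 3, the array with high Xist, these medians were 0.17 and -0.03. Over the 2 groups without that array, 1 female-biased gene was called higher. Control replicate 1 also stood apart. The male-biased genes averaged 8.58 and 8.71 in control replicates 1 and 3, 10.03 to 10.19 in the other 3 controls and 9.80 to 10.05 in NTL. The female-biased genes averaged 8.33 and 9.22 in those 2 arrays, 6.19 to 6.70 in the other 3 controls and 6.88 to 7.14 in NTL.

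Cxcl1 (Entrez 14825), a neutrophil-attracting chemokine and NF-kB target, stood at 8.41, 9.76, 10.25, 10.93 and 10.85 in controls and at 7.54, 7.50, 8.56, 8.01 and 7.77 in NTL. Control replicate 1 lay within the NTL range, and the 4 controls of the other experiments averaged 7.05 ± 0.20 (SD, n = 4). The fall was -2.16 ± 0.40 (SE; adjusted p = 0.00745, limma over all arrays). Over the 2 groups the adjusted p was 0.0381, and that call was lost in 8 of the 10 fits that left out an array (adjusted p = 0.0993 without NTL replicate 1). The tumors were at 9.59 ± 0.98 (SD, n = 5). Of the 34 measured NF-kB targets and chemokines no other was called in either fit, and the median was 0.08. Cxcl2, the neighbouring chemokine with the same receptor, changed by -0.73 ± 0.23 (SE) and was not called (adjusted p = 0.244). The Cxcl1 promoter is printed for its NF-kB motif (the letters in capitals, searched on both strands), from RefSeq, GRCm38.p6, chr5:90891099-90891208, plus strand. It occurs in 0.0883% of the 32851 promoters, and those of Cxcl2 and Nfkbia in this list also hold it.
Cxcl1 promoter: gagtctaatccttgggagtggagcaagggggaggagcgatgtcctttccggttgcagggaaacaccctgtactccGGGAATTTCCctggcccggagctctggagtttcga

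For several of the largest falls, among them Akap17b, Gli2 and Slc29a3, the 5 DEN controls stood above every other array. Akap17b (Entrez 338351), which encodes an A-kinase anchoring protein, stood at 7.63, 8.37, 8.16, 8.69 and 8.21 in controls and at 5.70, 5.96, 5.93, 5.88 and 5.98 in NTL. The other 30 arrays of the series reached at most 6.59, and the 4 controls of the LT and MYC experiments averaged 5.70 ± 0.30 (SD, n = 4), against 5.89 ± 0.11 (SD, n = 5) in NTL. The fall was -2.32 ± 0.17 (SE; adjusted p = 1.89e-10, limma over all arrays). Gli2 (Entrez 14633), the main activating transcription factor of hedgehog signalling, stood at 6.37, 6.83, 6.10, 7.29 and 7.44 in controls and at 4.99, 4.68, 4.82, 4.97 and 4.98 in NTL. No other array was above 5.12, and the fall was -1.92 ± 0.16 (SE; adjusted p = 1.36e-09, limma over all arrays). Of 19 measured hedgehog genes Gli2 was the only one called in either fit. Gli1, the pathway's usual readout, changed by 0.01 ± 0.07, and the receptor Ptch1 by -0.36 ± 0.11 (SE; adjusted p = 0.198).

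Slc29a3 (Entrez 71279), a lysosomal nucleoside transporter, stood at 8.94, 9.29, 9.40, 9.56 and 9.15 in controls and at 7.75, 7.83, 7.55, 7.91 and 7.55 in NTL, with 8.04 the highest of the other 30 arrays. The fall was -1.55 ± 0.14 (SE; adjusted p = 2.91e-08). Rnf24 (Entrez 51902), a membrane-bound RING finger protein, stood at 9.19, 9.36, 9.43, 9.71 and 9.12 in controls and at 7.02, 6.95, 6.85, 7.28 and 7.33 in NTL. The tumors lay between the groups at 8.28 ± 0.30 (SD, n = 5), and the fall in NTL was -2.28 ± 0.18 (SE; adjusted p = 1.2e-09). Josd2, a deubiquitinase, fell by 1.08 ± 0.16 from 9.88 to 8.80, with 9.46 the highest of the other 30 arrays. In all, 15 of the 18820 genes (0.0797%) had all 5 DEN controls above the other 30 arrays. The levels of both DEN groups were also set against the 4 controls of the LT and MYC experiments, in contrasts that share their arrays with the falls (log2 difference ± SE, limma over all arrays). Akap17b was 2.51 ± 0.18 above those controls in DEN controls and 0.19 ± 0.18 above them in NTL. The DEN control and NTL differences were 2.10 ± 0.20 and -0.18 ± 0.20 for Rnf24. They were 1.98 ± 0.17 and 0.06 ± 0.17 for Gli2, and 1.66 ± 0.15 and 0.11 ± 0.15 for Slc29a3. For these genes NTL lay near the controls of the other experiments and the DEN controls lay above them. Josd2 gave 1.19 ± 0.17 and 0.11 ± 0.17, and Cxcl1 gave 2.98 ± 0.42 and 0.82 ± 0.42. Among falls described further on, the differences were 1.47 ± 0.23 and -0.18 ± 0.23 for Hhipl2, and 1.01 ± 0.14 and 0.18 ± 0.14 for Casp6. For Baz1b they were 0.67 ± 0.08 and -0.04 ± 0.08. Cish had the other order, with 0.23 ± 0.43 in DEN controls and -1.68 ± 0.43 in NTL. By their labels the 2 control groups differ in experiment and not in DEN treatment. DEN NTL differs from the controls of the other experiments in both, and these cannot be told apart.

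**Figure D3:**
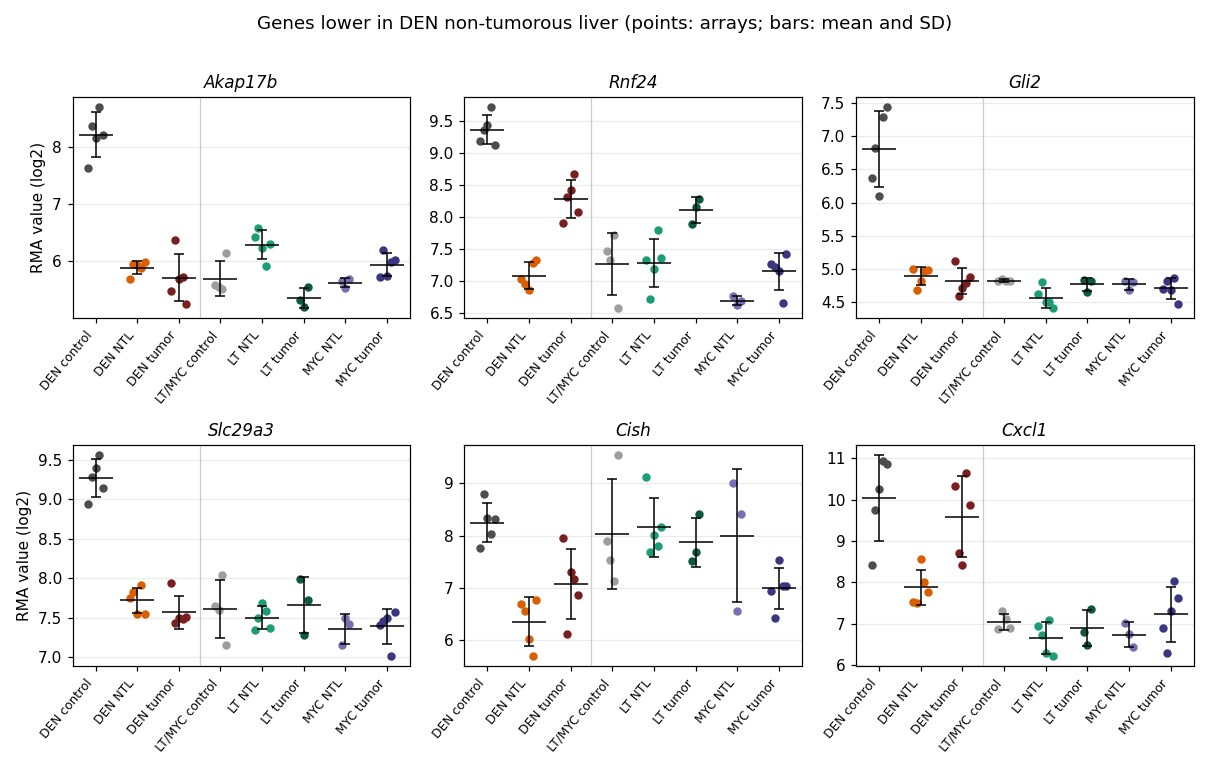
RMA values (log2, vertical axis) of 6 genes called lower in DEN NTL, by group (horizontal axis), with points for arrays and bars for the group mean and SD. For Akap17b, Gli2 and Slc29a3 the 5 DEN controls stand above every other array, and DEN NTL lies at the level of the controls of the LT and MYC experiments. For Cish the DEN NTL arrays lie below both control means.

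The remaining falls were mixed in function. Hhipl2, a relative of the hedgehog-interacting protein, fell by 1.65 ± 0.22 (SE) from 7.03 to 5.38, and Atp2b2, a plasma membrane calcium pump, by 1.44 ± 0.25 from 7.90 to 6.46. Unc5c, a netrin receptor, fell by 1.62 ± 0.32 with controls from 4.97 to 8.04 and NTL from 4.74 to 5.01. It overlapped between the groups and was not called over the 2 groups (adjusted p = 0.147) or without control replicate 2 (adjusted p = 0.0755). The dynein component Wdr63 fell by 1.05 ± 0.18, the phospholipase Pla2g12a by 0.83 ± 0.18, the executioner caspase Casp6 by 0.83 ± 0.13 and the activin receptor Acvr2b by 0.76 ± 0.15. Sipa1l2 and the chromatin remodeller Baz1b fell by 0.72 ± 0.11 and 0.71 ± 0.07. The other 8, which include Pgap1, a remodeller of GPI anchors, and the 14-3-3 gene Ywhag, fell by between 0.40 (Cyb5d1) and 0.64 (Adprm). Of the 24 falls, 14 kept their call whichever array was left out, and the others lost it in 1 (Unc5c) to 9 (Zpr1) of the 10 fits.

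Some of the genes that fell are neighbours. Casp6 and Pla2g12a lie 5.59 kb apart, and both fell over all arrays. Over the 2 groups, Josd2 fell with Aspdh (0.229 kb apart; -0.72 ± 0.08, SE, for the dehydrogenase Aspdh), and Zpr1 with Apoa5 (1.14 kb apart; -0.45 ± 0.07 for the apolipoprotein Apoa5). Fam120b fell with the Notch ligand Dll1 (19.3 kb apart; -0.63 ± 0.13), both 2-group calls lost in 8 of the 10 fits that left out an array. No measured gene lies between the members of these pairs in RefSeq. Of the 73 genes called lower over the 2 groups, 21.9% had another within 1 Mb, and of the 110 called higher 23.6% had. Over all arrays 4 of the 24 called lower (16.7%) and 0 of the 13 called higher had one. The share in other gene sets of these sizes was not computed, so whether neighbours are more frequent here than elsewhere is not known. Overlapping or read-through transcripts were not examined.

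Genes called lower only over the 2 groups included several expressed in hepatocytes. Hacl1, a peroxisomal lyase of alpha-oxidation, stood at 12.69, 12.57, 12.58, 12.56 and 12.57 in controls and at 11.85, 11.51, 11.66, 11.88 and 11.80 in NTL. The groups were well apart, tumors were lower again at 10.05 ± 0.37 (SD, n = 5), and the fall was -0.86 ± 0.07 (SE; adjusted p = 0.000182, limma over the 2 groups). Igfbp2, a binding protein for insulin-like growth factors, fell by 0.87 ± 0.17 (adjusted p = 0.0381), and Ildr2, a membrane protein of hepatocytes, by 0.94 ± 0.17 (adjusted p = 0.025), with -0.52 in its other probe set. Mmd2 fell by 2.01 ± 0.37 (adjusted p = 0.0286), with tumor replicate 2 at 10.56 and the other 4 tumors at 4.43 to 5.15. Tnfrsf1b, the TNF receptor 2, fell by 0.72 ± 0.14, Dock8, a guanine exchange factor of leukocytes, by 0.63 ± 0.11, the small nucleolar RNA Snord104 by 0.72 ± 0.09 and the resistin-like Retnlg by 0.62 ± 0.08. The calls of Mmd2, Ildr2, Igfbp2, Tnfrsf1b and Dock8 were lost in 6, 6, 8, 8 and 8 of the 10 fits that left out an array. Klb, the co-receptor for FGF15 and FGF21, fell by 0.56 ± 0.09 (adjusted p = 0.018).

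The largest rises called only over the 2 groups, beside Gpc3, Csn3, Ly6d, Afp, Cdkn1a and Tff3, were those of 4 genes. Mtnr1a, a melatonin receptor, rose by 1.85 ± 0.31 (SE; adjusted p = 0.0163) and was lower in tumors, at 5.41 ± 1.43 (SD, n = 5) against 7.43 ± 0.39 in NTL. Gria3, a glutamate receptor subunit, rose by 1.45 ± 0.17 (adjusted p = 0.00188; adjusted p = 0.0547 over all arrays) and was at 9.22 ± 0.55 (SD, n = 5) in tumors. Elapor1, an endosomal protein, rose by 1.33 ± 0.27 (adjusted p = 0.0493), a call lost in 9 of the 10 fits that left out an array. Fgf23, a phosphate-regulating hormone, rose by 1.29 ± 0.26 (adjusted p = 0.0413), with the call lost in 7 of 10.

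Several lists of liver metabolism held no called gene. In 22 of the 41 lists examined no member was called in either fit, and the lists hold 785 measured genes. Of all genes 0.197% were called over all arrays and 0.972% over the 2 groups. The 36 measured P450 and conjugation enzymes had a median of -0.01, with none called. Among them Cyp2e1, an enzyme that activates DEN, stood at 13.48, 13.50, 13.55, 13.43 and 13.47 in controls and at 13.36, 13.54, 13.49, 13.43 and 13.53 in NTL. Pericentral genes had a median of 0.07 and periportal genes of -0.08, each with none called. Glul, the pericentral glutamine synthetase, changed by 0.10 ± 0.13 (SE, 2-group fit), and Pck1, the periportal enzyme of gluconeogenesis, by -0.37 ± 0.08 (adjusted p = 0.0575, limma over the 2 groups). Fatty acid oxidation, cholesterol synthesis and acute phase genes had medians of 0.04, -0.01 and 0.01, with none called. Without control replicate 3, 1 of 26 measured fatty acid oxidation genes was called higher in each fit. Over the 2 groups without that array, 2 of 22 pericentral genes were also called higher. Both lists then had a median of 0.12. Of all genes, 13 were then called higher over all arrays and 96 over the 2 groups. The P450 and conjugation, periportal, cholesterol synthesis and acute phase lists still held no called gene.

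Of 20 measured lipid droplet and lipid uptake genes, 1 was called higher over the 2 groups. So were 1 of 23 ER stress and ATF4 targets and 2 of 25 NRF2 targets, where 0.584% of all genes were. Cidea, a lipid droplet protein, rose by 0.63 ± 0.12 (SE; adjusted p = 0.0319, limma over the 2 groups) from 3.94 to 4.58, while the 4 other controls averaged 7.69 ± 2.59 (SD, n = 4). Mogat1, a monoacylglycerol acyltransferase, stood at 3.91 to 5.71 in controls, at 6.01 to 6.84 in NTL and at 3.64 to 3.96 in tumors. Its change of 1.39 ± 0.31 just missed the call over all arrays (adjusted p = 0.0511), and without control replicate 3 the adjusted p was 0.0191. Lpl changed by 1.09 ± 0.33 and was not called (adjusted p = 0.205 over all arrays). Psat1, an enzyme of serine synthesis and ATF4 target, rose by 0.75 ± 0.10 (adjusted p = 0.00349). The NRF2 targets Aox1 and Gpx2 rose by 0.76 ± 0.15 (adjusted p = 0.0393) and 0.57 ± 0.12 (adjusted p = 0.0496). The calls of Cidea, Aox1 and Gpx2 were lost in 7, 7 and 9 of the 10 fits that left out an array, and that of Psat1 in none. These adjusted p-values are from limma over the 2 groups unless stated.

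Interferon response genes had a median of 0.18 over 26 measured, 19 above 0. NTL replicate 2 stood apart: the median of the list against the control mean was 0.65 there and 0.03 to 0.22 in the other 4 NTL arrays. The part of that array in the list's median was not tested. Ifi27 was the one called over all arrays, with 9.09, 9.64, 9.89, 9.28 and 9.69 in controls and 10.11, 10.81, 10.53, 10.52 and 10.20 in NTL (adjusted p = 0.0408), a call lost in 6 of the 10 fits that left out an array. Oasl1 was called with it over the 2 groups, at 0.81 ± 0.13 (SE; adjusted p = 0.0139). Irf7, the master regulator of interferon genes, changed by 0.77 ± 0.18 and was not called (adjusted p = 0.0774, limma over the 2 groups), although its groups did not overlap.

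Calls in the lists of other cell types are set here against the 0.972% of all genes called over the 2 groups. None of the 18 Kupffer cell, 19 monocyte-derived cell, 16 B and plasma cell, 14 dendritic cell and 25 stellate cell and matrix genes was called in either fit, with medians of 0.14, -0.05, 0.23, -0.05 and 0.19. Without control replicate 3, 1 monocyte-derived cell gene and 1 stellate cell and matrix gene were called higher over the 2 groups. NTL replicate 2 was the highest NTL array in the immune lists: against the control mean its median was 0.69 for Kupffer cell, 0.71 for B and plasma cell, 0.61 for dendritic cell and 0.47 for T and NK cell genes. The other 4 NTL arrays lay at -0.09 to 0.15, 0.07 to 0.25, -0.32 to 0.03 and -0.18 to -0.01. Of the stellate genes 23 had a change above 0, as had 19 of 20 vascular and 16 of 18 sinusoidal endothelial genes. The sinusoidal list had a median of 0.22, and of 0.10 without control replicate 3. Its mean level was 7.97 in that array, 8.35 to 8.69 in the other 4 controls and 8.59 to 8.68 in NTL. The part of these cells in the changes above was not tested. Mean levels of the Kupffer cell list ran from 8.66 to 9.23 in controls and from 8.87 to 9.57 in NTL, and those of the stellate list from 6.75 to 6.97 and from 6.96 to 7.16. Col1a1, the main fibrillar collagen chain, changed by 0.25 ± 0.13 (SE, 2-group fit), and Cd3e, the T cell receptor subunit, by 0.47 ± 0.21. Over the 2 groups 1 of 20 vascular and 1 of 18 sinusoidal endothelial genes were called higher. So were 1 of 15 cholangiocyte and ductular genes and 2 of 11 adipocyte genes, where 0.584% of all genes were. The counts of these lists without control replicate 3 were, in the same order, 1, 0, 2 and 1. The endothelial genes Plvap, a protein of fenestrated vessels, and Rspo3, a Wnt enhancer made by central vein endothelium, rose by 0.50 ± 0.06 (adjusted p = 0.00167) and 0.48 ± 0.10 (adjusted p = 0.0409). Sox9, a transcription factor of ductal and progenitor cells, rose by 0.53 ± 0.10 (adjusted p = 0.0396), whereas the ductal keratin Krt19 changed by 0.16 ± 0.11 and was not called. Of 11 measured adipocyte genes 10 had a change above 0, and Aqp7 and Cidea were called. Aqp7, a glycerol channel of adipocytes, rose by 1.05 ± 0.11 (adjusted p = 0.00121). The calls of Rspo3 and Sox9 were lost in 9 and 7 of the 10 fits that left out an array, and those of Plvap and Aqp7 in none. The 9 pancreatic acinar genes, a check for neighbouring tissue, averaged 4.34 to 4.47 in controls and 4.36 to 4.64 in NTL.

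**Figure D4:**
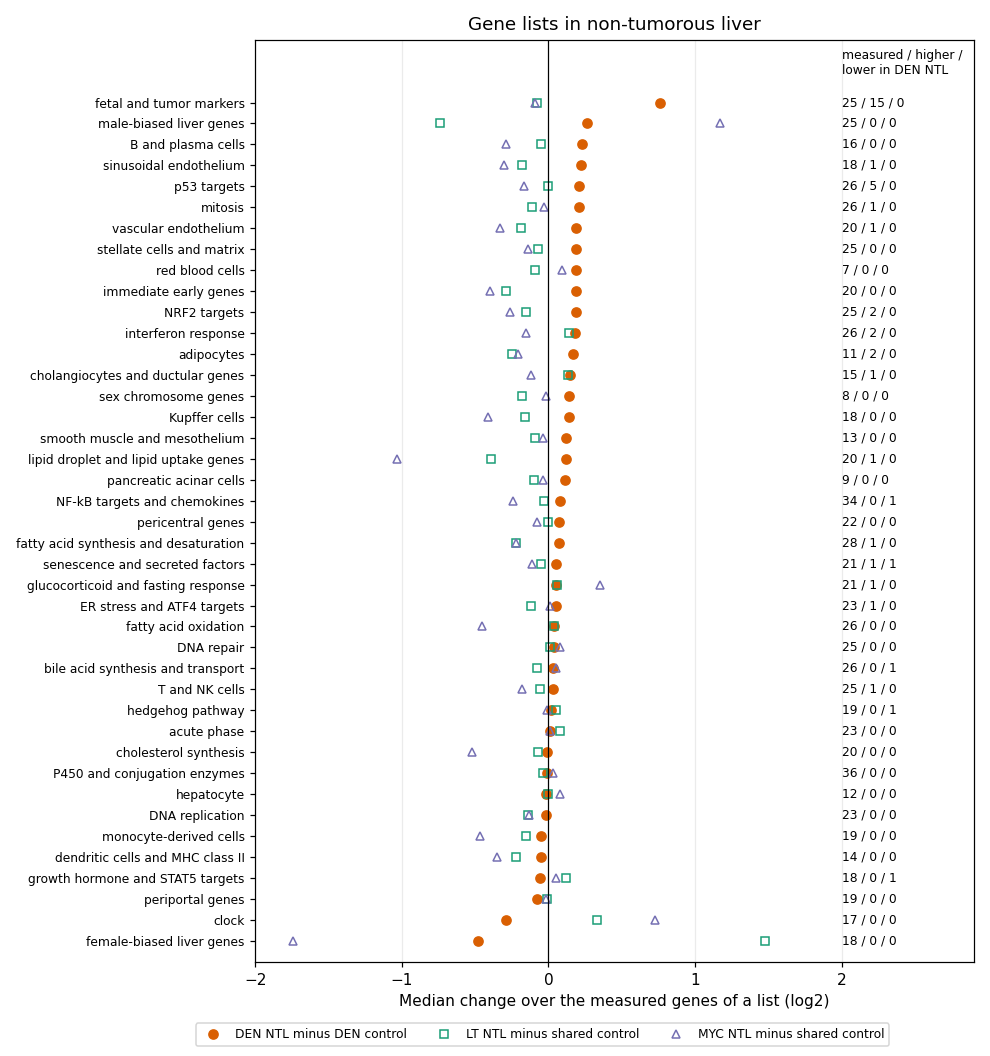
Median change over the measured genes of each of 41 lists (log2, horizontal axis) in DEN NTL against DEN control, and in LT and MYC NTL against the 4 controls they share. The numbers at the right count the measured genes and those called higher and lower in DEN NTL over the 2 groups. The fetal and tumor marker list, written with earlier results of these data known, stands furthest right in DEN NTL, at 0.76. The female-biased list stands furthest left, at -0.48.

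The NTL of the other models was compared with the change in DEN NTL by contrasts within the fit of all arrays, since their controls are separate arrays. The change in DEN NTL differed from that in LT NTL for 841 genes (4.47%) and from that in MYC NTL for 613 (3.26%). With a term for high Xist in the fit the first count was 266. Of the leading risers, Akr1c18, Klrb1b, Gldn and Scd2 were not called in LT or MYC NTL, where 2.41% and 3.83% of genes were. Akr1c18 changed by -0.23 in LT NTL and -0.50 in MYC NTL, differences from DEN of 5.54 (adjusted p = 1.2e-08) and 5.82 (adjusted p = 2.13e-08). Klrb1b changed by -0.23 and -0.46 there, differences of 3.01 (adjusted p = 0.00129) and 3.24 (adjusted p = 0.000848). For Gldn the changes were -0.05 and 0.02, and both differences were called (adjusted p = 8.4e-07 and 3.39e-06). Cdkn1a changed by -1.48 in LT NTL and -2.23 in MYC NTL, so that the differences from DEN were 3.07 (adjusted p = 0.0036) and 3.81 (adjusted p = 0.000608). The fetal and tumor marker list had medians of -0.08 in LT NTL and -0.09 in MYC NTL. Because that list was written with earlier results of these data known and holds leading DEN risers, its medians are not independent evidence of a difference between models. For Afp and Gpc3 the differences were not called (adjusted p = 0.216 and 0.176 against LT, 0.268 and 0.232 against MYC).

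Cish changed by 0.13 in LT NTL and -0.03 in MYC NTL, and its difference from DEN was called against LT (-2.04; adjusted p = 0.0428) and not against MYC (-1.88; adjusted p = 0.105). Cxcl1 changed by -0.40 and -0.31, and neither difference was called (adjusted p = 0.0764 and 0.106). Cd276 rose by 0.78 in MYC NTL, and its difference from DEN was not called there (adjusted p = 0.726). The LT and MYC comparisons share their 4 controls and are not independent of each other.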

How the data were processed

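The authors deposited log2 expression values per probe set of Affymetrix Mouse Gene 1.1 ST arrays, normalized with RMA per the submitters' processing notes. Neither an RMA implementation nor a genome build is given in the sources used here. Replicates are labelled as separate mice. Of 35556 probe sets, 21218 had 1 gene symbol, 1881 several and 12457 none. Genes were represented by the brightest probe set with a single symbol, which gave 18820 genes, and no filter was set. Group means over all 35 arrays were fitted with limma 3.58.1 (R 4.3.3), with Benjamini-Hochberg adjustment over all genes. A fit of the 10 arrays of DEN control and DEN NTL was an alternative planned beside it. Named genes were all genes called over all arrays, the 10 largest rises and 10 largest falls called only over the 2 groups, up to 3 genes with the smallest p in each list, and a fixed set. Genes and lists were chosen with earlier results of these data known, and some genes were added after their values were seen. On simulated data for this comparison, 92 of 100 genes changed by 1 (log2) and 61 of 100 changed by 0.5 were recovered over all arrays. The same simulated fit also called 13 unchanged genes. Genes near the lower limit of the arrays show direction better than size.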

Additional observations from a re-analysis of the deposited data

Results flagged for a closer look

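Within groups of 5, some single arrays lay far from the other 4, by a rule that chance meets in about 1 of 20 groups. In the controls these were Hhipl2 in replicate 5 (6.29, lowest), Mmd2 in replicate 1 (9.61, highest), Hacl1 in replicate 1 (12.69, highest), Cdh17 in replicate 5 (3.77, highest), Rspo3 in replicate 3 (6.68, lowest) and Xist in replicate 3 (12.02, highest). In NTL they were Gria3 in replicate 1 (6.69, highest) and Socs2 in replicate 3 (9.23, highest).

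The change in DEN NTL differed from the change in LT or MYC NTL, each against its own controls, for the following named genes (limma over all arrays, adjusted p under 0.05). Each value is the DEN change minus the other, in log2. Where a pair is given, LT comes first and MYC second, and the contrasts share the DEN arrays and the 4 other controls. The difference was above 0 against both models for 1700020L24Rik (0.69 and 0.52), Mgat5b (0.45 and 0.45), Trp53inp1 (0.88 and 0.81) and Fbxo6 (1.27 and 0.94). Differences above 0 against both also held for Npnt (1.5 and 1.82), Lgals1 (1.87 and 3.65), Gldn (1.78 and 1.71) and Scd2 (2.41 and 2.99). The same sign was found for Klrb1b (3.01 and 3.24), Akr1c18 (5.54 and 5.82), Cdkn1a (3.07 and 3.81) and Cidea (4.36 and 4.41). Above 0 were also Mogat1 (3.07 and 3.46), Rspo3 (1.08 and 1.41) and Anxa5 (1.27 and 1.46). The difference was below 0 against both models for Akap17b (-2.91 and -2.25), Rnf24 (-2.29 and -1.70), Gli2 (-1.66 and -1.85) and Hhipl2 (-1.67 and -1.26). Differences below 0 against both also held for Slc29a3 (-1.44 and -1.30), Wdr63 (-1.11 and -1.30), Acvr2b (-1.68 and -0.86) and Sipa1l2 (-1.09 and -1.37). Below 0 were also Baz1b (-1.14 and -0.86), Pgap1 (-0.75 and -0.82), Zpr1 (-0.61 and -1.40) and Snora70 (-0.55 and -0.67). The values were also negative for Hexdc (-0.59 and -0.68) and Fam120b (-0.95 and -0.78).

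Against LT and not MYC the difference was called for Cish (-2.04), Josd2 (-1.63), Ywhag (-0.46) and Cyb5d1 (-0.85). Against LT it was also called for Cd276 (0.61), Terf2ip (0.71), Mtnr1a (3.57) and Gria3 (1.89). So it was against LT for Igfbp2 (-1.89), Hacl1 (-1.13), Snord104 (-1.45) and Aspdh (-1.07). Called against LT were also Dll1 (-1.20), Socs2 (-3.09), Plvap (0.87) and Xist (-6.33). Against MYC and not LT it was called for Pla2g12a (-1.22), Casp6 (-1.15), Tnfrsf1b (-1.08) and Oasl1 (1.92). Against MYC it was also called for Sox9 (1.37) and Ptch1 (-0.67). Whether the differences against LT and MYC differ from each other was not tested.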

How the results depend on the processing

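Against 37 genes called over all arrays, 80 were called at an adjusted p under 0.1, 183 with only the groups compared and 297 with array weights, and the cause of the last was not tested. The other planned settings gave 33 to 47, and leaving out an array gave 26 to 45. Over the 2 groups alone, leaving out an array gave 89 to 178 genes against 183, with 89 to 117 without NTL replicate 1, 2, 3 or 4 or control replicate 2 or 4, and 78 of the 183 were called in all 10 such fits. These fits of the 2 groups were chosen after seeing the data. Shared replicate numbers did not pair the samples: correlations of same-numbered deviations were -0.121, 0.058, -0.109, 0.105 and 0.152. With a replicate block 34 genes were called over all arrays and 91 over the 2 groups. Non-overlapping genes numbered 1078 to 1385 when an array was left out, against 880, as fewer arrays overlap less. The difference between DEN and LT NTL gave 266 genes with a term for Xist above 9, 2125 with only the groups compared and 501 to 1026 when an array was left out (501 to 543 without LT NTL 5, other control 1, DEN NTL 4 or DEN control 3). The difference between DEN and MYC NTL gave 2074 with only the groups compared and 320 to 656 when an array was left out (320 and 401 without MYC NTL 1 and 2). The uncalled changes of 5 genes changed sign in some settings. Cyp2e1 was 0.023 and Gli1 -0.071 after repeated quantile normalization, and Akr1c14 was -0.067 with the Xist term and -0.041 with array weights. With an array left out, Alb ranged from -0.019 to 0.023, Cyp2e1 from -0.032 to 0.012, Bcl6 from -0.008 to 0.579, Akr1c14 from -0.047 to 0.048 and Gli1 from -0.027 to 0.039.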
